A study of Mus musculus with 18 samples.

Results

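The 9 genes described here mark the subsets of dendritic cells, and they were followed across choroid plexus libraries of a lupus-prone mouse strain and its control. They were taken by symbol from the 50584 genes of the deposited count table. Clec9a, Xcr1, Batf3 and Irf8 stand for conventional type 1 cells, Cd209a for type 2 cells, and Siglech and Ccr9 for plasmacytoid cells, while Flt3 and Zbtb46 are shared by the conventional subsets. All 9 symbols were found, and 8 had enough counts to be tested. Cd209a did not.

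The tissue was choroid plexus, the vascular and epithelial fold of the brain ventricles that secretes cerebrospinal fluid. Bulk RNA was sequenced from 6 MRL/lpr libraries and 3 MRL/+ libraries at 16 weeks of age, and from 6 MRL/lpr and 3 MRL/+ libraries at 12 weeks. The lpr allele disrupts Fas, the death receptor that ends lymphocyte responses, and MRL/lpr mice develop autoimmunity with age. MRL/+ mice share the MRL background and were the control strain. The allele is carried in every cell and not in dendritic cells alone. No treatment is given in the labels, and they do not state that each library was a separate animal, so p-values describe the spread between these samples, which may be technical. In bulk tissue, more cells of a type and more RNA per cell cannot be told apart.

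Dendritic cells take up antigen, carry it to T cells and set the kind of response that follows. Conventional type 1 cells take up dead cells through the receptor CLEC9A and present their antigens to CD8 T cells, type 2 cells mainly serve CD4 T cells, and plasmacytoid cells release type I interferon on sensing nucleic acids through TLR7 and TLR9, a response long studied in lupus. In mice, a small dendritic cell population resides in the choroid plexus stroma and meninges, outside the brain tissue proper.

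Total counts ran between 11164284 and 14602253 per library. Epithelial identity was clear in all groups: 12 choroid plexus epithelium genes, Ttr among them, summed to between 158226 and 317348 CPM (counts scaled to a common depth) over the 18 libraries. Fas had 14 to 66 counts per library in MRL/lpr, against 23 to 28 in MRL/+ at 16 weeks, and 16 to 67 in MRL/lpr, against 14 to 21 in MRL/+ at 12 weeks. Its difference did not pass the test at 16 weeks (log2 fold change 0.43, edgeR Benjamini-Hochberg adjusted p = 0.528) or at 12 weeks (1.09, adjusted p = 0.182). Because Fas counts cover all exons, they check neither the allele nor the labels. Other tissue stood out most in 4 libraries. The 8 pineal gland genes summed to 120 and 94.2 CPM in MRL/lpr 12 week replicates 1 and 4. The 6 cerebellum genes summed to 403 CPM in MRL/+ 12 week replicate 1, and 8 skeletal muscle genes to 711 CPM in MRL/+ 16 week replicate 1. Counts and calls without these 4 libraries are given beside the members and the gene lists. The libraries kept in those fits are not free of other tissue. Sums of 6 pituitary genes ran over 18.2 to 88.1 CPM, highest in MRL/lpr 12 week replicate 3, with 85.6 in replicate 2. Cerebellum genes reached 215 CPM in MRL/lpr 12 week replicate 2 and 217 in MRL/lpr 16 week replicate 1. At 16 weeks the pituitary gene Lhb alone averaged 18.2 CPM in MRL/lpr and 18.5 in MRL/+. The cerebellum gene Zic1 alone averaged 88.8 and 80.7 CPM, so sums near those levels do not show other tissue.

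The start-site regions of the 4 members called higher in MRL/lpr at 1 age or both are shown as the ones the results turn on, to let their sequences be read beside the values that follow. Each runs from 250 bases before to 50 bases after the transcription start (RefSeq, GRCm38.p6), 5′ to 3′ on the strand of the gene.
Clec9a promoter, chr6:129408612-129408911, plus strand: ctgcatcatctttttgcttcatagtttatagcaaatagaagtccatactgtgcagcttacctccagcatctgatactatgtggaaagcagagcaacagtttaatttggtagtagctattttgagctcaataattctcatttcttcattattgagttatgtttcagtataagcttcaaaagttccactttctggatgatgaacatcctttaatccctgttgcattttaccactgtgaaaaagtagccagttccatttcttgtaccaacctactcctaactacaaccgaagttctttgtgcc
Xcr1 promoter, chr9:123861980-123862279, minus strand: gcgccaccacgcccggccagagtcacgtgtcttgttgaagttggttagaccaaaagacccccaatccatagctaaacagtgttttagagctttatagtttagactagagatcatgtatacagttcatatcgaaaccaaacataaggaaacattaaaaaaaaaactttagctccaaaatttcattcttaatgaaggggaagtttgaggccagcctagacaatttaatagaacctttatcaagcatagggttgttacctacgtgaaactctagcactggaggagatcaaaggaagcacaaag
Irf8 promoter, chr8:120736108-120736407, plus strand: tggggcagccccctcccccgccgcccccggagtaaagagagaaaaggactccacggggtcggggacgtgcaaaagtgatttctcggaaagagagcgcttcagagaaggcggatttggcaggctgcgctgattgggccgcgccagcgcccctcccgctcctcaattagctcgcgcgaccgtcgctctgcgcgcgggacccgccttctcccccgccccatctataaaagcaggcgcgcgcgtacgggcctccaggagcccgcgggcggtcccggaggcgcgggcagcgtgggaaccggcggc
Flt3 promoter, chr5:147400440-147400739, minus strand: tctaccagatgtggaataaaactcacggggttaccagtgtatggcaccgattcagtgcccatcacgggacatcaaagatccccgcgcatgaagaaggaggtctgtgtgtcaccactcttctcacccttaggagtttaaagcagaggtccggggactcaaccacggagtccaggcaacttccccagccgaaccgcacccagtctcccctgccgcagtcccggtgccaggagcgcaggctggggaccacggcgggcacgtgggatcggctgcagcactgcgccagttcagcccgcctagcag

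A RefSeq start-site region was present for all 9 members, with 2 for Irf8, of which the upstream one is shown. These were searched on both strands for a composite element (GGAA, any 2 bases, then GAAA) bound by an ETS factor such as PU.1 together with IRF8 or IRF4, an interferon response element (GAAA, any 2 bases, then GAAA) and the AP-1 element TGANTCA, which BATF proteins also bind. None of the 4 regions above held any of these letters. Of 32851 mouse start-site regions of the same length, 2.72% held the composite element, 3.44% the interferon element and 7.81% the AP-1 element. Matches were found at Zbtb46, where TGACTCA begins 61 bases before the start, and at Cd209a, where the composite element on the opposite strand begins 9 bases before it. These regions are shown with the matched letters in capitals. The Zbtb46 start is the one in the RefSeq table and lies inside the gene as the deposited table bounds it.
Zbtb46 promoter, chr2:181424339-181424638, minus strand: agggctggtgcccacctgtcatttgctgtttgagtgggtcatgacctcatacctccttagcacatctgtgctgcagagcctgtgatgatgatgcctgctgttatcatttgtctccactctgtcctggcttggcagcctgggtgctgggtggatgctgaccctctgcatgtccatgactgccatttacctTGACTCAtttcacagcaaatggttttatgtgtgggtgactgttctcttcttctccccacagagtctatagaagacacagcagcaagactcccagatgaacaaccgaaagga
Cd209a promoter, chr8:3748935-3749234, minus strand: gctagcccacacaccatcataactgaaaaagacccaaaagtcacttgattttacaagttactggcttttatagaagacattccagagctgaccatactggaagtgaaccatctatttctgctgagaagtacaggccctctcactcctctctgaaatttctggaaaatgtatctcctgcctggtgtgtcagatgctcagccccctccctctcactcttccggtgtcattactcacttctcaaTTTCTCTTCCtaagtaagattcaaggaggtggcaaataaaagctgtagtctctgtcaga
Neither match overlaps another motif. A match describes letters in this window and says nothing of binding.

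MRL/lpr choroid plexus carried more transcript of the type 1 genes Clec9a, Xcr1 and Irf8 at both ages, between 5.84-fold and 12.0-fold, and more of Flt3 at 16 weeks (13.8-fold). The plasmacytoid genes Siglech and Ccr9, the type 1 factor Batf3 and the conventional factor Zbtb46 were not called at either age. At 16 weeks 4 of the 8 tested members were called higher and 0 lower with edgeR (adjusted p under 0.05), against 8.49% of all 16598 genes tested called higher and 2.64% called lower. At 12 weeks 3 of 8 were called higher and 0 lower, against 5.01% of all genes called higher and 1.34% called lower. In levels that did not overlap between the strains, 5 members were higher in MRL/lpr at 16 weeks (9.91% of all genes) and 4 at 12 weeks (8.59%). The median log2 fold change of the 8 members was 1.79 at 16 weeks and 1.26 at 12 weeks, beside 0.03 and -0.01 over all genes. Both counts rest on few control libraries: without any 1 of the 3 MRL/+ libraries of its age, 2 members were called at 16 weeks (Clec9a and Irf8) and 1 at 12 weeks (Clec9a). The same 2 counts, 2 and 1, were obtained without the 4 libraries with other tissue.

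**Figure D1:**
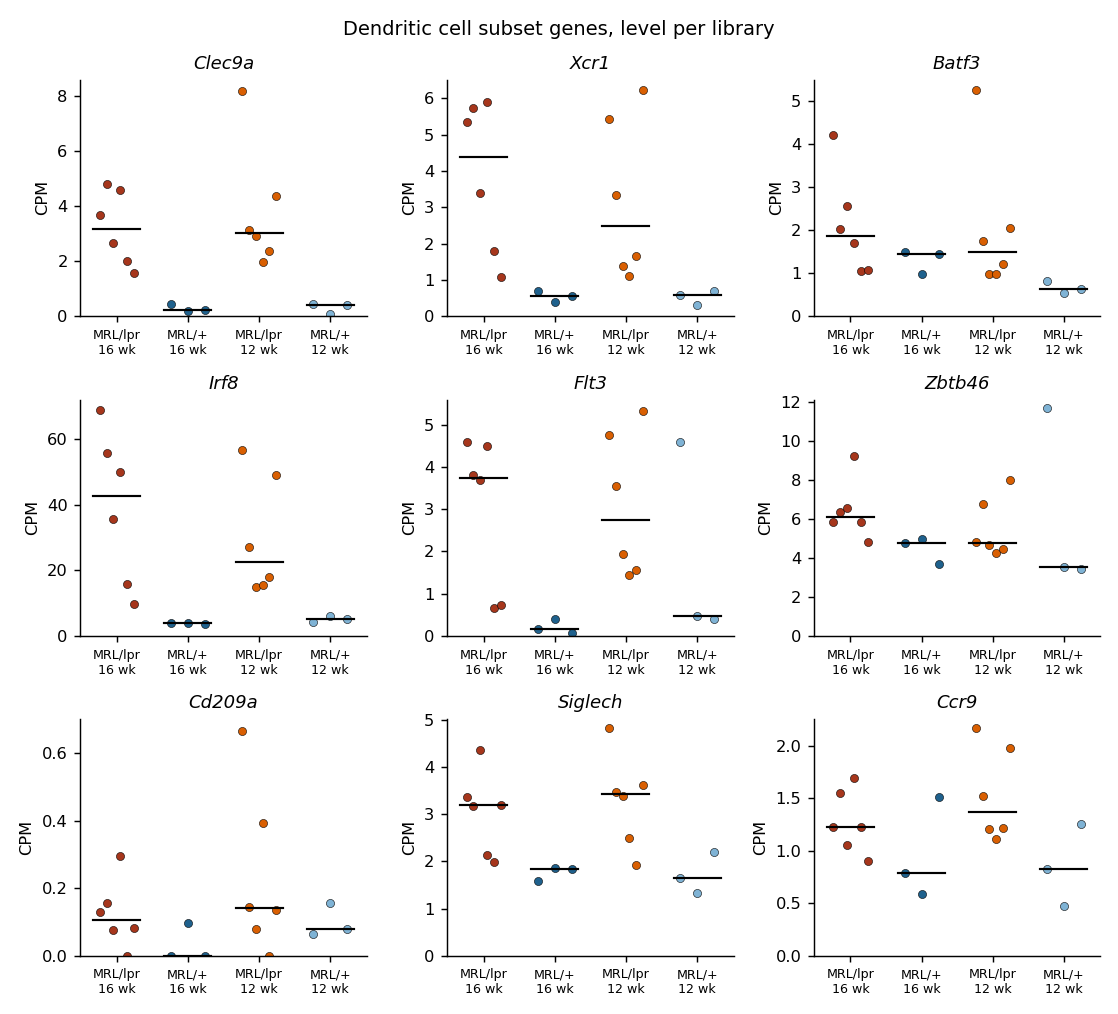
Level of each of the 9 genes in every library, in CPM on a linear axis with its own scale per gene. Each point is 1 library, the bar is the group median, and points run by replicate number within the 4 groups; the MRL/lpr points of Clec9a, Xcr1 and Irf8 all lie above the MRL/+ points of the same age, while those of Batf3 at 16 weeks, Ccr9 and Zbtb46 overlap them.

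Clec9a (chromosome 6, 129408862 to 129424763, plus strand, GRCm38) encodes the receptor by which type 1 cells recognise actin exposed on dead cells. At 16 weeks its level in MRL/lpr was 1.56 CPM at the lowest, 3.16 at the median and 4.81 at the highest. The MRL/+ libraries, here and below in replicate order, had 0.439, 0.195 and 0.239 CPM. At 12 weeks it was 1.97, 3.01 and 8.17 CPM in MRL/lpr at the lowest, median and highest. The MRL/+ libraries, in replicate order, had 0.445, 0.0784 and 0.392 CPM. The lowest MRL/lpr library stood above the highest MRL/+ library at both ages. The fold change was 10.7 at 16 weeks (log2 3.42 ± 0.62 SE, adjusted p = 0.00276) and 12.0 at 12 weeks (3.58 ± 0.61, adjusted p = 0.00317) with edgeR. It was called in each of the 9 fits that left out 1 library at either age, and also without the 4 libraries with other tissue. The MRL/+ values rest on few reads. Clec9a shares 184 of its 3293 exon bases with Clec1b on the same strand, which itself had at most 9 counts in any library.

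Xcr1 (chromosome 9, 123852315 to 123862029, minus strand) encodes the receptor for the chemokine XCL1, which activated CD8 T cells and natural killer cells release. At 16 weeks MRL/lpr libraries had 1.07 CPM at the lowest, 4.37 at the median and 5.90 at the highest. The MRL/+ libraries, in replicate order, had 0.702, 0.390 and 0.558 CPM. At 12 weeks the MRL/lpr lowest, median and highest were 1.12, 2.50 and 6.22 CPM. The MRL/+ values, in replicate order, were 0.572, 0.313 and 0.706 CPM. Again no MRL/lpr library fell within the MRL/+ range, but the MRL/lpr libraries differed among themselves by 5.54-fold at 16 weeks and 5.57-fold at 12 weeks. Xcr1 was higher by 2.79 ± 0.70 (SE) on the log2 scale at 16 weeks (edgeR adjusted p = 0.0159) and by 2.56 ± 0.68 at 12 weeks (adjusted p = 0.0325). The call was lost without any 1 MRL/+ library of its age (adjusted p 0.0591 to 0.0794 at 16 weeks and 0.102 to 0.146 at 12 weeks) and, at 12 weeks, without MRL/lpr replicate 1 (0.0631). Its log2 fold change was 2.61 to 3.00 at 16 weeks and 2.30 to 2.80 at 12 weeks in those fits without 1 MRL/+ library. Without the 4 libraries with other tissue it was 3.03 at 16 weeks (adjusted p = 0.0776) and 2.66 at 12 weeks (adjusted p = 0.204).

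Irf8 (chromosome 8, 120736358 to 120756694, plus strand) encodes the transcription factor that specifies type 1 and plasmacytoid cells, and macrophages, microglia and B cells use it too. In MRL/lpr it was 9.75 CPM at the lowest, 42.8 at the median and 68.9 at the highest at 16 weeks. In MRL/+ it was 3.86, 4.09 and 3.59 CPM, in replicate order. At 12 weeks MRL/lpr libraries ran over 15.0, 22.5 and 56.7 CPM at the lowest, median and highest. MRL/+ libraries, in replicate order, had 4.32, 5.96 and 5.26 CPM. The MRL/+ libraries of an age lay close together, and every MRL/lpr library lay above them. The log2 fold change was 3.35 ± 0.64 (SE) at 16 weeks (10.2-fold, edgeR adjusted p = 0.00358) and 2.55 ± 0.61 at 12 weeks (5.84-fold, adjusted p = 0.0178). At 16 weeks the call held in each of 9 fits without 1 library. At 12 weeks it was lost without any 1 MRL/+ library (log2 fold change 2.45 to 2.66, adjusted p 0.0749 to 0.100) and without the 4 libraries with other tissue (2.33, adjusted p = 0.203).

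Batf3 (chromosome 1, 191097847 to 191108945, plus strand) encodes the AP-1 family factor that mouse type 1 cells need to develop, acting with IRF8. At 16 weeks its level in MRL/lpr was 1.04 CPM at the lowest, 1.86 at the median and 4.20 at the highest. In MRL/+ it was 1.49, 0.975 and 1.44 CPM, in replicate order. At 12 weeks the MRL/lpr lowest, median and highest were 0.967, 1.48 and 5.25 CPM. The MRL/+ values, in replicate order, were 0.826, 0.549 and 0.628 CPM. The strains overlapped at 16 weeks and not at 12 weeks, where the MRL/lpr maximum came from a single library. Batf3 did not pass the test at 16 weeks (log2 fold change 0.69 ± 0.54 SE, edgeR adjusted p = 0.397) or at 12 weeks (1.58 ± 0.58, adjusted p = 0.116). The difference between these strain differences did not pass either (-0.89 ± 0.77 on the log2 scale, adjusted p = 0.539).

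Flt3 (chromosome 5, 147330741 to 147400489, minus strand) encodes the receptor tyrosine kinase whose ligand drives dendritic cell production from bone marrow progenitors. At 16 weeks its level in MRL/lpr was 0.662 CPM at the lowest, 3.75 at the median and 4.58 at the highest. In MRL/+ it was 0.175, 0.390 and 0.0798 CPM, in replicate order. At 12 weeks the MRL/lpr lowest, median and highest were 1.45, 2.74 and 5.33 CPM. MRL/+ had 4.58, 0.470 and 0.392 CPM, in replicate order. At 16 weeks the groups did not overlap, with 4 MRL/lpr libraries at 3.69 CPM or more and 2 at 0.737 CPM or less. At 12 weeks MRL/+ replicate 1 lay inside the MRL/lpr range, and the other two MRL/+ libraries lay below it. Flt3 was higher in MRL/lpr at 16 weeks by 3.79 ± 1.02 (SE) on the log2 scale (edgeR adjusted p = 0.0243). The call was lost without any 1 MRL/+ library of that age (log2 fold change 3.38 to 4.48, adjusted p 0.0604 to 0.121) and without the 4 libraries with other tissue (3.71, adjusted p = 0.0699). At 12 weeks the log2 fold change was 0.75 ± 0.77 (adjusted p = 0.601), and without MRL/+ replicate 1 it was 2.85 (adjusted p = 0.109).

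Zbtb46 (chromosome 2, 181387762 to 181459426, minus strand) encodes a zinc finger factor of conventional dendritic cells that endothelial cells also express. Its level in MRL/lpr at 16 weeks was 4.83 CPM at the lowest, 6.11 at the median and 9.21 at the highest. In MRL/+ it was 4.74, 4.97 and 3.67 CPM, in replicate order. At 12 weeks the MRL/lpr lowest, median and highest were 4.27, 4.76 and 7.99 CPM. The MRL/+ values, in replicate order, were 11.7, 3.53 and 3.45 CPM. The strains overlapped at both ages, and the highest of all 18 libraries was MRL/+ 12 week replicate 1. The log2 fold change was 0.53 ± 0.35 (SE) at 16 weeks (edgeR adjusted p = 0.318) and -0.18 ± 0.34 at 12 weeks (adjusted p = 0.784). Without that library the 12 week value turned positive (0.68, adjusted p = 0.283). Summed CPM of 10 endothelium genes, of which 0 were called at either age, ran over 64.1 to 236 in MRL/lpr, against 49.9 to 78.3 in MRL/+ at 16 weeks. At 12 weeks the sums ran over 58.1 to 236 in MRL/lpr, against 61.1 to 146 in MRL/+, and the part of these cells in the Zbtb46 values was not tested.

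**Figure D2:**
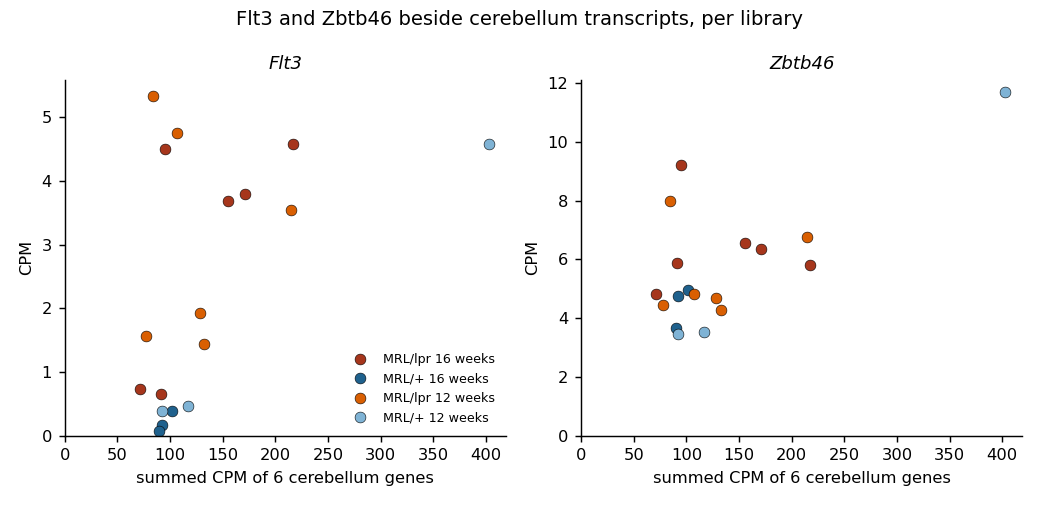
Level of Flt3 and Zbtb46 in CPM against the summed CPM of 6 cerebellum genes, 1 point per library in all 4 groups, on linear axes. MRL/+ 12 week replicate 1 stands at the right edge in both panels, with 403 CPM of cerebellum genes, 4.58 CPM of Flt3 and 11.7 CPM of Zbtb46.

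MRL/+ 12 week replicate 1 held 72 Flt3 counts and 184 Zbtb46 counts, and its 6 cerebellum genes summed to 403 CPM, where the other 17 libraries ran between 71.4 and 217 CPM. The other 2 MRL/+ libraries of that age, with 0.470 and 0.392 CPM of Flt3, held 117 and 92.4 CPM of these genes. Zic1 makes up much of such sums, with a mean of 80.7 CPM where the 6 genes summed to 94.5 (MRL/+ at 16 weeks). The part of cerebellar tissue in the Flt3 and Zbtb46 values was not tested.

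Cd209a (chromosome 8, 3743397 to 3748984, minus strand) encodes a C-type lectin that marks type 2 and monocyte-derived dendritic cells in mice. It was nearly undetected. At 16 weeks the 6 MRL/lpr libraries held 2, 2, 1, 4, 0 and 1 counts and the 3 MRL/+ libraries 0, 1 and 0. At 12 weeks the MRL/lpr libraries held 8, 2, 1, 6, 0 and 2 counts and the MRL/+ libraries 1, 2 and 1. A count of 0, seen in 4 libraries, allows up to 3 counts, or 0.239 to 0.284 CPM at their depths, so most values lie at or near that limit. Scaled to depth, the pooled ratio of MRL/lpr over MRL/+ was 4.38 at 16 weeks (10 against 1 counts, exact 95% interval 0.624 to 190) and 2.46 at 12 weeks (19 against 4 counts, 0.819 to 9.96). A difference was not detectable at this depth, and these intervals cover counting error only.

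Siglech (chromosome 7, 55768178 to 55778925, plus strand) encodes a sialic acid-binding receptor used to identify mouse plasmacytoid cells, and mouse microglia express it too. At 16 weeks its level in MRL/lpr was 1.98 CPM at the lowest, 3.19 at the median and 4.37 at the highest. In MRL/+ it was 1.58, 1.85 and 1.83 CPM, in replicate order. At 12 weeks the MRL/lpr lowest, median and highest were 1.92, 3.43 and 4.84 CPM. The MRL/+ values, in replicate order, were 1.65, 1.33 and 2.20 CPM. The groups stood apart at 16 weeks by a narrow margin and overlapped at 12 weeks through 1 MRL/lpr library. Siglech did not pass the test at 16 weeks (log2 fold change 0.79 ± 0.31 SE, edgeR adjusted p = 0.107) or at 12 weeks (0.93 ± 0.31, adjusted p = 0.0839). It passed under other settings at both ages, among them limma with sample weights (adjusted p 0.0236 at 16 weeks and 0.0223 at 12 weeks). Of 10 microglia genes, 5 were called higher in MRL/lpr at 16 weeks and 4 at 12 weeks, and 3 and 0 without the 4 libraries with other tissue. Their summed CPM ran over 349 to 576 in MRL/lpr, against 333 to 449 in MRL/+ at 16 weeks, and over 277 to 529 in MRL/lpr, against 388 to 582 in MRL/+ at 12 weeks. Of these sums Sparc alone, which many other cells express and which was not called, averaged 324 ± 57.4 in MRL/lpr, against 294 ± 54.3 in MRL/+ at 16 weeks, and 280 ± 74.9 in MRL/lpr, against 376 ± 119 in MRL/+ at 12 weeks. A sum of the other 9, taken after the values were seen, ran over 106 to 202 CPM in MRL/lpr, against 81.0 to 93.5 in MRL/+ at 16 weeks, and over 100.4 to 168 in MRL/lpr, against 68.5 to 89.4 in MRL/+ at 12 weeks. Their part in Siglech was not tested.

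Ccr9 (chromosome 9, 123678439 to 123784330, plus strand) encodes the receptor for CCL25 carried by plasmacytoid cells and gut-homing T cells. MRL/lpr had 0.901 CPM at the lowest, 1.23 at the median and 1.70 at the highest at 16 weeks. MRL/+ had 0.789, 0.585 and 1.52 CPM, in replicate order. At 12 weeks the MRL/lpr lowest, median and highest were 1.12, 1.37 and 2.17 CPM. MRL/+ had 0.826, 0.470 and 1.26 CPM, in replicate order. The strains overlapped at both ages. The log2 fold change was 0.39 ± 0.37 (SE) at 16 weeks (edgeR adjusted p = 0.479) and 0.85 ± 0.37 at 12 weeks (adjusted p = 0.188). Of its 10260 exon bases, 1932 are shared with the antisense gene model Gm17021, 269 with Gm17200 and 22 with the transporter gene Slc6a20a, and the strand setting of the counting is not given in the sources used here.

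**Figure D3:**
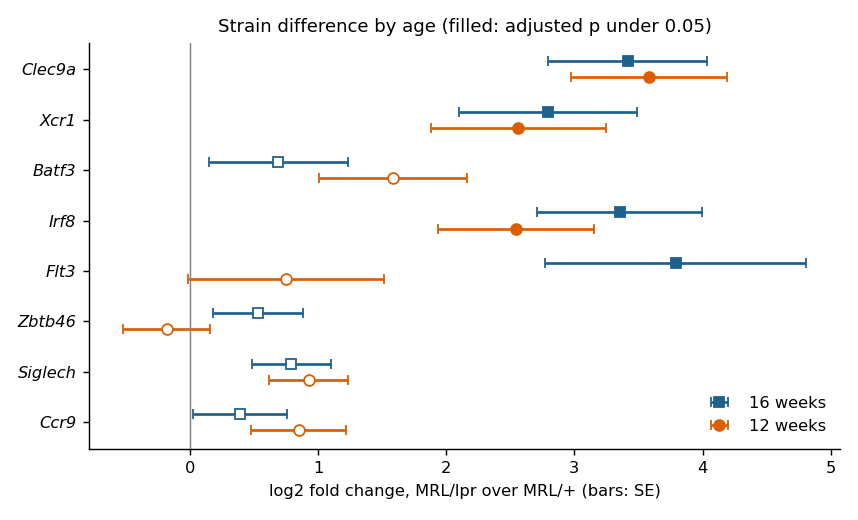
Log2 fold change of MRL/lpr over MRL/+ for the 8 tested members, squares for 16 weeks above circles for 12 weeks, with bars for the SE of the edgeR fit and filled symbols where adjusted p was under 0.05. Clec9a, Xcr1 and Irf8 are filled at both ages and Flt3 at 16 weeks, and Zbtb46 at 12 weeks (-0.18) is the one value below 0.

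None of the members was called between the ages. In MRL/lpr, 16 over 12 weeks, log2 fold changes ran between -0.26 for Ccr9 (edgeR adjusted p = 0.846) and 0.38 for Irf8 (adjusted p = 0.848). With edgeR 0 of 8 were under an unadjusted p of 0.05, against 6.73% of all genes tested. limma with sample weights placed 2 members under that unadjusted level and called 0, and its share over all genes is not given here. In this comparison 6 genes were called in all, 0.0361% of those tested. In MRL/+, values ran between -3.08 for Flt3 (adjusted p = 0.379) and 0.95 for Batf3 (adjusted p = 0.480), and 0% of genes were called with edgeR, while 2173 had an unadjusted p under 0.05 and 12 were called by DESeq2. The Flt3 value was -0.99 without MRL/+ 12 week replicate 1. In MRL/+ the 16 week levels of Batf3 lay above those of 12 weeks without overlap (15.3% of all genes), and those of Flt3 and Irf8 lay below them (14.4% of all genes).

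The strain by age interaction, which asks whether the strain difference itself differed between the ages, called 0 members and 0 of all genes with edgeR, DESeq2 and limma. With edgeR 2286 genes (13.8% of those tested) had an unadjusted p under 0.05. Among the members only Flt3 did (interaction 3.04 ± 1.23 SE on the log2 scale, adjusted p = 0.361), and without MRL/+ 12 week replicate 1 its value was 0.98. With 3 MRL/+ libraries per age, these tests do not show that levels were alike at the 2 ages.

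Genes were set beside one another per kilobase of exon. The length used covers all annotated exons of a gene, 10260 bases for Ccr9 with those shared with other gene models. Ranks and shares depend on it. On this scale Irf8 was the most abundant member in both MRL/lpr groups, with a median of 6.07 CPM per kb at 16 weeks and 3.18 at 12 weeks. In MRL/lpr at 16 weeks Batf3 (1.16 CPM per kb), Xcr1 (0.982), Clec9a (0.959) and Siglech (0.942) came next and did not differ beyond their spread over libraries. Zbtb46 (0.718) and Flt3 (0.606) followed, and Ccr9 (0.120) and Cd209a (0.0667) were lowest. In MRL/+ at 16 weeks the order was another one: Batf3 was highest (0.899 CPM per kb), before Zbtb46 (0.557), Irf8 (0.547) and Siglech (0.542), which overlapped one another. Xcr1 (0.125), Ccr9 (0.0769), Clec9a (0.0727) and Flt3 (0.0284) followed, and the median of Cd209a was 0.

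At 12 weeks the MRL/lpr order below Irf8 was Siglech (1.01 CPM per kb), Batf3 (0.927), Clec9a (0.914), Xcr1 (0.560), Zbtb46 (0.559) and Flt3 (0.444), all with overlapping libraries, and then Ccr9 (0.134) and Cd209a (0.0890). In MRL/+ at 12 weeks Irf8 (0.745) was followed by Siglech (0.488), Zbtb46 (0.414) and Batf3 (0.393), and Xcr1 (0.128), Clec9a (0.119), Ccr9 (0.0805), Flt3 (0.0761) and Cd209a (0.0496) were low. The 4 type 1 genes made up 75.7 ± 8.68% of the members' summed CPM per kb in MRL/lpr, against 56.7 ± 5.56% in MRL/+ at 16 weeks (SD, n = 6 and 3), with a lowest MRL/lpr library of 60.9% and a highest MRL/+ library of 61.1%. At 12 weeks they made up 73.0 ± 6.21% in MRL/lpr, against 47.2 ± 11.7% in MRL/+. The 3 MRL/+ libraries of that age had 33.8%, 52.3% and 55.5%, and the lowest MRL/lpr library had 65.9%. The lowest MRL/+ share was that of replicate 1, the library with high Flt3 and Zbtb46 levels. Without Irf8, which other leukocytes express, the type 1 share at 16 weeks was 55.5 ± 7.57% in MRL/lpr, against 45.9 ± 8.23% in MRL/+, with overlapping libraries. At 12 weeks it was 53.6 ± 8.14% in MRL/lpr, against 28.8 ± 6.03% in MRL/+, where replicate 1 was again lowest (22.3%). These shares were not tested.

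**Figure D4:**
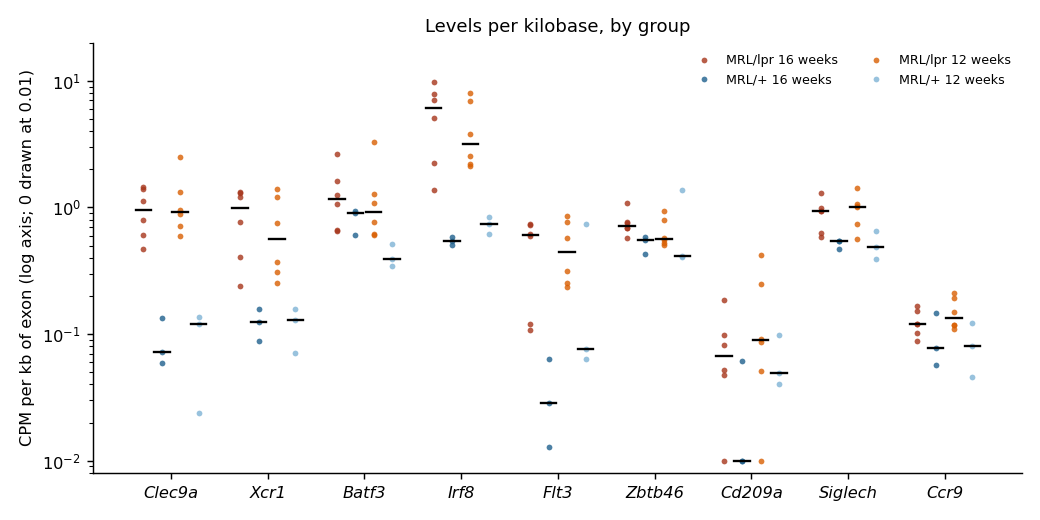
Level per kilobase of exon of the 9 members on a log axis, 1 point per library, with bars for the median of each of the 4 groups and values of 0 drawn at 0.01. Irf8 is highest in the MRL/lpr groups (medians 6.07 and 3.18 CPM per kb), and Cd209a and Ccr9 lie low in every group.

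Leukocyte transcripts as a whole were far more abundant in MRL/lpr, so the members were also set against them. The 10 pan-leukocyte genes, which include Ptprc (CD45), summed to 143 to 1202 CPM in MRL/lpr, against 40.6 to 59.6 CPM in MRL/+ at 16 weeks, and to 230 to 842 CPM in MRL/lpr, against 42.2 to 46.0 CPM in MRL/+ at 12 weeks. All 10 were called higher at 16 weeks and 9 at 12 weeks, and 5 and 1 without the 4 libraries with other tissue. Within MRL/lpr at 16 weeks the library poorest in these transcripts, replicate 6 with 143 CPM, was lowest for 5 of the 8 tested members, and replicate 5, with 273 CPM, for the other 3. In replicate 6 Siglech lay above its group median of 3.19 CPM, and the richest library, replicate 1 with 1202 CPM, had the second lowest Zbtb46 level (5.81 CPM). At 12 weeks replicates 1 and 6, with 842 and 738 CPM, held the highest value of all 8.

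Per 1000 pan-leukocyte counts, Clec9a overlapped between the strains. Its ratio was 3.06 at the lowest, 6.08 at the median and 10.9 at the highest in MRL/lpr at 16 weeks. In MRL/+ it was 8.45, 3.27 and 5.89, in replicate order. At 12 weeks the MRL/lpr lowest, median and highest were 5.93, 8.97 and 10.2. The MRL/+ ratios, in replicate order, were 10.2, 1.86 and 8.52. With Ptprc alone in the denominator the difference in mean log2 ratio, MRL/lpr minus MRL/+, was -1.24 at 16 weeks and -0.40 at 12 weeks, in place of 0.11 and 0.66.

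The ratio of Irf8 was 64.3 ± 7.76 in MRL/lpr, against 77.2 ± 10.1 in MRL/+ at 16 weeks (SD, n = 6 and 3), with overlap, and 66.6 ± 7.62 in MRL/lpr, against 118 ± 21.1 in MRL/+ at 12 weeks, without overlap. Irf8 varied 7.07-fold among MRL/lpr libraries at 16 weeks in CPM, but its ratio ran only between 57.3 and 77.7. Xcr1 had 6.61 ± 1.23 in MRL/lpr, against 11.3 ± 4.09 in MRL/+ at 16 weeks, and 6.73 ± 1.86 in MRL/lpr, against 12.0 ± 4.09 in MRL/+ at 12 weeks, with overlap at both ages. Flt3 had 4.79 ± 1.48 in MRL/lpr, against 3.96 ± 2.35 in MRL/+ at 16 weeks. With Ptprc alone in the denominator, the mean log2 ratios of Irf8, Xcr1 and Flt3 at that age were all lower in MRL/lpr, as given in the last section.

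The other members were scarcer per leukocyte transcript in MRL/lpr. Siglech at 16 weeks had 2.56 at the lowest, 5.85 at the median and 22.3 at the highest in MRL/lpr. In MRL/+ it had 30.4, 31.1 and 45.2, in replicate order. The highest of these MRL/lpr libraries was replicate 6, and the next highest had 7.95. At 12 weeks Siglech had 8.45 ± 2.85 in MRL/lpr, against 39.1 ± 8.13 in MRL/+. Batf3 had 4.04 ± 1.89 in MRL/lpr, against 26.8 ± 9.64 in MRL/+ at 16 weeks, and 4.39 ± 1.22 in MRL/lpr, against 15.2 ± 3.31 in MRL/+ at 12 weeks. Both genes stood apart between the strains at both ages, as did Zbtb46 and Ccr9. Flt3 at 12 weeks had 5.64 at the lowest, 6.55 at the median and 9.998 at the highest in MRL/lpr. In MRL/+ it had 105, 11.1 and 8.52, in replicate order. These ratios are descriptions with no test, and cells other than leukocytes express some of the members, such as Zbtb46.

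**Figure D5:**
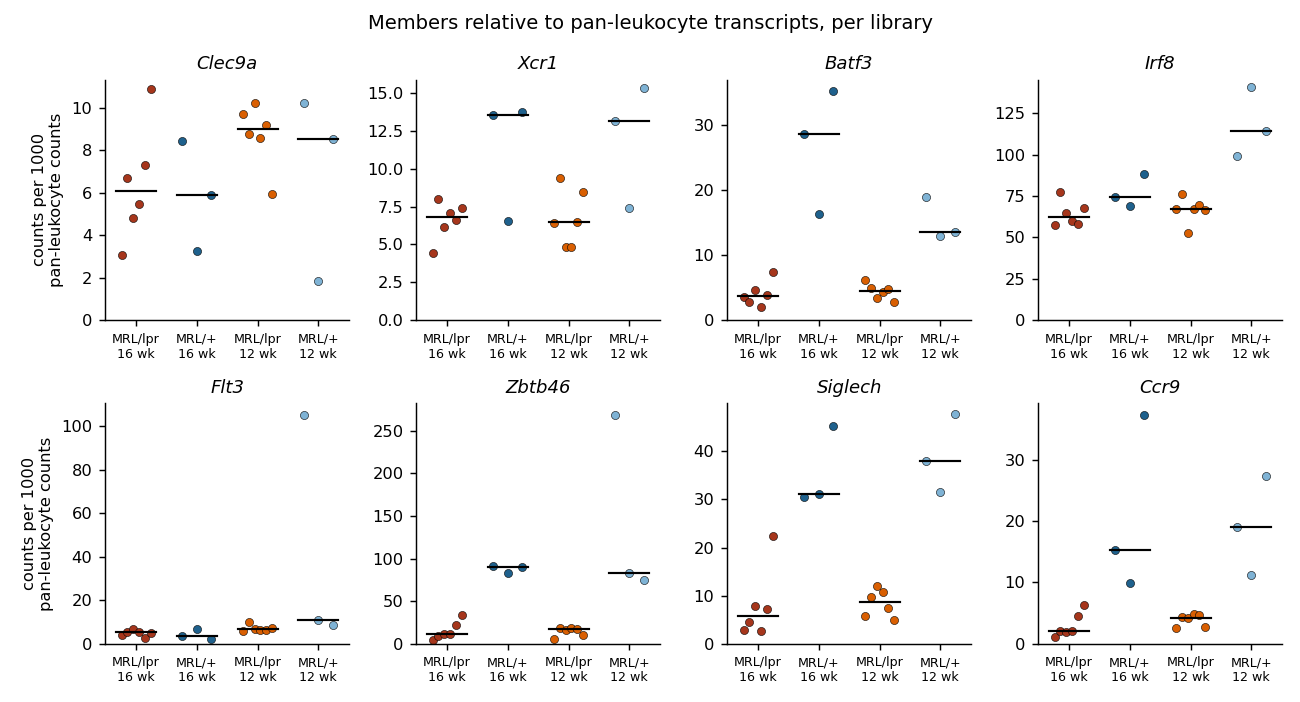
Counts of each tested member per 1000 counts of the 10 pan-leukocyte genes, 1 point per library on a linear axis per gene, with bars for group medians. Clec9a overlaps between the strains at both ages (medians 6.08 in MRL/lpr, against 5.89 in MRL/+ at 16 weeks), while every MRL/lpr point of Batf3, Zbtb46, Siglech and Ccr9 lies below the MRL/+ points of the same age.

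Further genes of the same subsets rose in part. Of 11 other type 1 genes, 4 were called higher in MRL/lpr at 16 weeks and 5 at 12 weeks, 0 lower, with a median log2 fold change of 1.29 at 16 weeks and 0.56 at 12 weeks. Wdfy4, needed by mouse type 1 cells to cross-present antigen, averaged 14.8 ± 10.9 CPM in MRL/lpr, against 0.728 ± 0.511 in MRL/+ at 16 weeks (SD, n = 6 and 3; edgeR adjusted p = 0.00317), and 11.5 ± 6.95 in MRL/lpr, against 1.07 ± 0.275 in MRL/+ at 12 weeks (adjusted p = 0.0113). Itgae, the CD103 integrin chain that tissue-resident T cells also carry, Gcsam and the profilin sensor Tlr11 were called higher at both ages. Cd36 was called at 12 weeks only. The genes called at neither age were the adhesion molecule Cadm1, Id2, Tlr3, Naaa, Snx22 and Rab7b. At 16 weeks the log2 fold change was 1.29 for Cadm1 (adjusted p = 0.101) and -0.27 for Id2 (adjusted p = 0.297). It was 0.77 for Tlr3, 0.27 for Naaa, 0.81 for Snx22 and 0.77 for Rab7b. The 12 week values were -0.004 for Cadm1, -0.06 for Id2, 0.12 for Tlr3, 0.10 for Naaa, 0.51 for Snx22 and 0.56 for Rab7b.

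Of 10 other type 2 genes tested, 4 were called higher at 16 weeks and 5 at 12 weeks, 0 lower, with a median of 0.96 at 16 weeks and 1.64 at 12 weeks. Clec10a, a galactose-binding lectin shared with macrophages, averaged 3.00 ± 1.46 CPM in MRL/lpr, against 0.327 ± 0.0781 in MRL/+ at 16 weeks (edgeR adjusted p = 0.00436), and 3.10 ± 2.13 in MRL/lpr, against 0.284 ± 0.0844 in MRL/+ at 12 weeks (adjusted p = 0.0047). Irf4, which plasma cells also use, and Itgam and Tnfrsf1b, which monocytes and macrophages also express, were called higher at both ages. Sirpa was not called (log2 fold change 1.10 at 16 weeks, adjusted p = 0.0591). Notch2, Klf4, Esam and Cd7 were called at neither age, and Mgl2 at 12 weeks only. At 16 weeks the log2 fold change was -0.001 for Notch2, -0.05 for Klf4, 0.75 for Esam and 0.08 for Cd7. At 12 weeks it was -0.36 for Notch2, -0.02 for Klf4, 0.64 for Esam and 1.11 for Cd7.

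Of 13 other plasmacytoid genes tested, 8 were called higher at 16 weeks and 5 at 12 weeks, 0 lower, with a median of 2.52 at 16 weeks and 1.70 at 12 weeks. Tlr7, the sensor of single-stranded RNA that B cells and macrophages also carry, averaged 10.2 ± 4.55 CPM in MRL/lpr, against 1.43 ± 0.514 in MRL/+ at 16 weeks (edgeR adjusted p = 0.00189), and 8.14 ± 3.41 in MRL/lpr, against 1.47 ± 0.594 in MRL/+ at 12 weeks (adjusted p = 0.00458). Spib and Ly6d, which B cells share, and Ly6c2, a monocyte marker, were also called at both ages. The 5 genes called at neither age were Tcf4, the factor that specifies plasmacytoid cells and is used by many other cells, Pacsin1, Klk1, Cox6a2 and Ccdc162. At 16 weeks the log2 fold change was 0.56 for Tcf4 (adjusted p = 0.0901), 0.07 for Pacsin1, -0.73 for Klk1, -0.74 for Cox6a2 and 0.07 for Ccdc162. At 12 weeks it was -0.09 for Tcf4, -0.67 for Pacsin1 (adjusted p = 0.0952), -0.09 for Klk1, 1.70 for Cox6a2 and 0.12 for Ccdc162.

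Of 16 genes of mature or antigen-presenting dendritic cells, 10 were called higher at 16 weeks and 9 at 12 weeks, 0 lower, with a median of 2.86 at 16 weeks and 2.77 at 12 weeks. The costimulatory ligand Cd86 averaged 14.8 ± 7.33 CPM in MRL/lpr, against 1.21 ± 0.651 in MRL/+ at 16 weeks (edgeR adjusted p = 0.00185), and 11.0 ± 6.02 in MRL/lpr, against 1.28 ± 0.0916 in MRL/+ at 12 weeks (adjusted p = 0.00463). Ccr7, the receptor that guides dendritic cells and T cells towards lymphoid tissue, averaged 2.44 ± 2.08 CPM in MRL/lpr at 16 weeks, and all MRL/+ libraries of that age were at 0. Itgax (CD11c), Ciita, Cd83 and the chemokine Ccl22 were called at both ages. Dpp4, Relb, Ccl17, Cacnb3, Cst3 and Kit were called at neither. Cst3 had a log2 fold change of -0.47 at 16 weeks and 0.34 at 12 weeks, and Kit of 0.71 and -0.48. The other uncalled genes had positive values at both ages.

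The ligands and growth factors of these cells gave 3 of 7 called higher at 16 weeks and 2 of 7 at 12 weeks, 0 lower, with a median of 1.56 at 16 weeks and 0.87 at 12 weeks. Flt3l, the ligand of FLT3, averaged 10.2 ± 1.15 CPM in MRL/lpr, against 3.36 ± 0.292 in MRL/+ at 16 weeks (3.03-fold, edgeR adjusted p = 0.000834), and 8.92 ± 2.28 in MRL/lpr, against 4.18 ± 0.792 in MRL/+ at 12 weeks (2.13-fold, adjusted p = 0.00518). Xcl1, the ligand of XCR1, averaged 1.70 ± 1.43 CPM in MRL/lpr, against 0.123 ± 0.107 in MRL/+ at 16 weeks (adjusted p = 0.045), and 1.65 ± 1.62 in MRL/lpr, against 0.0784 ± 0.0784 in MRL/+ at 12 weeks (adjusted p = 0.0403). Ccl25, the ligand of CCR9, was not called (log2 fold change -0.46 at 16 weeks, adjusted p = 0.189). Without the 4 libraries with other tissue, the type 1, type 2, plasmacytoid, mature and ligand lists gave 3, 2, 4, 6 and 1 genes called higher at 16 weeks and 0 in each list at 12 weeks, where 34 of all genes were called.

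Markers of other leukocytes that share some of these genes moved with them. All 10 T cell genes were called higher at both ages, with summed levels of 27.1 to 224 CPM in MRL/lpr, against 0.96 to 1.17 in MRL/+ at 16 weeks, and 43.6 to 213 in MRL/lpr, against 1.10 to 1.33 in MRL/+ at 12 weeks. Of 9 B cell genes tested 8 were called at both ages, with sums of 5.74 to 157 CPM in MRL/lpr, against 0.56 to 0.78 in MRL/+ at 16 weeks, and 21.3 to 128 in MRL/lpr, against 0.51 to 0.78 in MRL/+ at 12 weeks. Of 12 macrophage genes 9 were called at 16 weeks and 6 at 12 weeks, with sums of 388 to 2917 CPM in MRL/lpr, against 129 to 181 in MRL/+ at 16 weeks, and 673 to 3692 in MRL/lpr, against 104 to 117 in MRL/+ at 12 weeks. Of the other lists, 5 of 8 monocyte genes were called higher at 16 weeks and 4 at 12 weeks, 6 and 7 of 9 natural killer cell genes, and 7 of 10 plasma cell genes at both ages, with 0 lower. Without the 4 libraries with other tissue, the T cell, B cell, macrophage, monocyte, natural killer cell and plasma cell lists gave 10, 3, 6, 4, 5 and 3 genes called higher at 16 weeks, and 3, 0, 0, 2, 0 and 1 at 12 weeks. The part of these cells in the levels of Irf8 and of the listed genes that they share was not tested.

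The genes whose levels followed each member most closely over the 12 MRL/lpr libraries, after the mean of each age was taken off, are given by Pearson correlation of log2 CPM as a description. Clec9a ran closest to the complement proteases C1s1 (r = 0.968) and C1s2 (0.968), near-identical copies whose counts may be shared, and to Cyp4v3 (0.950). Xcr1 ran with Tap1, the peptide transporter of MHC class I loading (0.983), Tapbpl (0.977) and Fam26f (0.976). Irf8 ran with the MHC class I gene H2-Q4 (0.992), Nfkbie (0.992) and Tap1 (0.991).

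Flt3 ran with Gsap (0.973), Nt5e (0.967) and Cd274, the ligand of PD-1 (0.965), and Batf3 with Plekho1 (0.944), Tmsb10 (0.942) and Nans (0.934). Zbtb46 ran with Golim4 (0.967), Tmppe (0.963) and Rbl2 (0.944), and Ccr9 with Orai1 (0.953), Slc39a1 (0.952) and Ptdss1 (0.947). Siglech had the weakest closest match, Penk (0.889), followed by Gpr34, a receptor of microglia (0.881), and Lxn (0.827). Each was among the 3 highest of about 12195 genes. The libraries differ in depth and in leukocyte content, with pan-leukocyte sums of 143 to 1202 CPM at 16 weeks and 230 to 842 at 12 weeks. Many genes can follow such differences together, so these values say nothing of common control. Without the 2 libraries furthest from the median of the member, they ran between 0.663 (Lxn with Siglech) and 0.986 (Tap1 with Xcr1). Gpr34 with Siglech then had 0.786 and Rbl2 with Zbtb46 0.836.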

How the data were processed

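The deposited table holds raw counts per gene from choroid plexus RNA (TruSeq RNA v2 libraries run over several lanes, per the labels' protocols). Per the submitters' processing notes, reads were aligned with STAR 2.5.3a to GRCm38 and counted with featureCounts 1.26.0, and DESeq2 1.16.1 was used. For the annotation release, strand setting and treatment of multiply aligned reads, nothing is given in the sources used here. Gene bounds and exon lengths come from the table.

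Counts of all 18 libraries were fitted with edgeR 4.0.16 in R 4.3.3 (filterByExpr, TMM scaling, 1 mean per group, robust quasi-likelihood tests), which left 16598 genes. P-values were adjusted by Benjamini-Hochberg over all of them, and genes were called at an adjusted p under 0.05. CPM use TMM-scaled totals. DESeq2 1.42.0, limma 3.58.1 with voom and sample weights, other filters and scalings, and fits without each library were alternatives. The fit was tested on simulated counts. No pair of the 36 library pairs within groups looked like repeats of 1 library (smallest chi-square per gene 6.10).

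The members, the 19 marker lists and the rules for naming genes (up to 4 per list by smallest p, and the 3 genes most like each member) were chosen with earlier results of these data known. Other genes of these lists named in the text were picked for their known role. Precision follows from the depth of 11164284 to 14602253 counts: a count of 0 allows up to 3 counts, and such limits cover counting error only.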

Additional observations from a re-analysis of the deposited data

Results flagged for a closer look

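Batf3 in MRL/lpr at 12 weeks held 1 library far from the rest: replicate 1 had 5.25 CPM, the next highest library had 2.05 CPM, and this gap was 0.747 of the whole range of the 6 libraries. It is past Dixon's 95% value, which chance passes in about 1 in 20 groups. All 8 tested members were checked in this way in both MRL/lpr groups, and this was the only flag. The same library was the highest of its group for Clec9a, Irf8, Siglech and Ccr9, and it held 842 CPM of pan-leukocyte genes and 120 CPM of pineal gland genes. The part of either in the Batf3 value was not tested.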

How the results depend on the processing

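Of the members, Clec9a at both ages and Irf8 at 16 weeks kept their call in all alternatives run. Members called at 12 weeks numbered 5 with limma, 1 without the 4 libraries with other tissue, and 1 to 4 over fits without 1 library, and at 16 weeks 2 without those 4 libraries and 2 to 4 without 1 library. Genes called over the whole table at 12 weeks were 1055, against 1665 with DESeq2, 3515 with limma, 34 without the 4 libraries and 259 to 1463 without 1 library. At 16 weeks they were 1849, against 4864 with limma, 7899 with scaling to epithelium genes (7873 higher, 26 lower, all genes shifted to a median of 0.78 on the log2 scale), 503 without the 4 libraries and 665 to 2596 without 1 library. The epithelium scaling left Ttr out, and most counts in it were of Enpp2. Enpp2 averaged 46604 CPM in MRL/lpr, against 76075 in MRL/+ at 16 weeks, and was not called. That scaling gave 913 higher and 9 lower at 12 weeks, with a median of 0.30, where the usual scaling gave 832 and 223. Between ages in MRL/lpr 6 genes were called, against 84 with DESeq2, 21 with limma, 0 with only these groups in the fit, 1 with the replicate block, 0 without the 4 libraries and 1 to 9 without 1 library. In MRL/+ 0 were called, against 12 with DESeq2 and 1724 with limma. Replicate numbers did not pair the samples (same-number correlations -0.62 to 0.45), and the replicate block called 4 members at 12 weeks (Batf3 and Siglech gained, Xcr1 lost at adjusted p = 0.0584) and 5 at 16 weeks (Siglech gained). Irf8 at 12 weeks missed the threshold without a count filter (0.0516), and Xcr1 with only its groups in the fit (0.0612). Zbtb46 at 12 weeks was -0.18 and turned to 0.40 with limma, 0.82 without the 4 libraries and 0.68 without MRL/+ replicate 1, ran over -0.47 to 0.68 in fits without 1 library, and passed at 16 weeks only under epithelium scaling (1.28), which also turned Ccr9 between ages in MRL/lpr to 0.00147. Flt3 at 12 weeks passed with limma (2.04, adjusted p = 0.0337). The causes were not tested. Relative to Ptprc alone, log2 differences at 16 weeks were -1.24 for Clec9a, -2.07 Xcr1, -4.14 Batf3, -1.62 Irf8, -0.98 Flt3, -4.16 Zbtb46, -3.93 Siglech and -4.18 Ccr9, and at 12 weeks -0.40 Clec9a, -1.87 Xcr1, -2.87 Batf3, -1.88 Irf8, -4.19 Zbtb46, -3.32 Siglech and -3.30 Ccr9. Relative to all pan-leukocyte counts at 12 weeks, fits without 1 library ran over -0.12 to 1.11 for Clec9a and -2.31 to -0.50 for Flt3.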
